A study of Bos taurus with 22 samples.

Results

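Described here are 10 genes that organise lymphoid tissue, out of 27570 genes in a table of the bovine jejunal mucosa. They were 5 chemokines (*CXCL13*, *CCL19*, *CCL21*, *CCL20* and *CXCL12*), their 4 receptors (*CXCR5*, *CCR7*, *CCR6* and *CXCR4*) and *LTB*, a cytokine of the tumor necrosis factor family. The genes were chosen by name, with earlier results of these data known, and each symbol matched 1 gene of the table. Messenger RNA was measured by strand-specific RNA sequencing of scraped jejunal mucosa from 22 Holstein steers, aged 10 to 12 months, after 7 d of treatment. All steers, controls included, received raw corn starch (3.94 g/kg of BW daily) into the abomasum, the glandular stomach. Control steers (n = 5) received abomasal water and subcutaneous vehicle, a solution of bovine serum albumin (BSA) in saline. GLP-2 steers (n = 5) received water and 100 µg of glucagon-like peptide 2 per kg of BW daily. Casein steers (n = 6) received sodium caseinate (1.30 g/kg of BW daily) and vehicle, and casein + GLP-2 steers (n = 6) received both. GLP-2 is a gut hormone that promotes growth of the intestinal mucosa, and casein is the main milk protein. Replicate numbers are the body weight blocks, within which the treatments were assigned at random.

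Chemokines are small secreted proteins that draw cells along a gradient to the place where they are made. In lymphoid tissue *CXCL13*, made by follicular stroma, draws B cells that carry *CXCR5* into follicles, while *CCL19* and *CCL21* draw T cells and dendritic cells that carry *CCR7* into the T cell zone and, for *CCL21*, into lymphatic vessels. *LTB* encodes lymphotoxin beta, the membrane partner of lymphotoxin alpha, whose signal to stroma maintains *CXCL13*, *CCL19* and *CCL21*. In the gut wall the epithelium over lymphoid follicles makes *CCL20*, the ligand of *CCR6*, and stromal cells throughout the mucosa make *CXCL12*, the ligand of *CXCR4*.

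The counts of the 22 libraries summed to between 8809666 and 28447810 per steer, with a median of 12028560.5. Levels are given as CPM, which are counts scaled to a common library size with TMM factors, and log2 CPM has a prior count of 2. Comparisons between genes use the deposited FPKM, which is scaled for gene length. Genes were tested with the quasi-likelihood test of edgeR with P-values adjusted over all genes tested, and were called where the adjusted P was at most 0.05. Markers of the labelled tissue were present in every steer: *EPCAM*, an epithelial adhesion protein, ranged from 266.9 to 1945 CPM and *FABP2*, an enterocyte lipid-binding protein, from 466.5 to 29520 CPM. The lowest of each was in control replicate 5. No member overlapped another gene of the annotation (ARS-UCD1.2).

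Exogenous GLP-2 administration decreased 7 of the 9 members that could be tested, and none was increased. The 7 were *CXCL13*, *CXCR5*, *CCR7*, *CCL21*, *CCL20*, *CXCR4* and *LTB*. Of all 13928 genes tested, 8.37% were lower and 13.5% changed in either direction. Because the members were chosen with earlier results of these data known, this share is a description and not a test of the set. With the body weight block in the model the calls fell from 7 to 2 members (*CXCL13* and *CXCR4*), and from 1166 to 338 lower genes of all tested. *CXCL12* tended to be lower, at an adjusted P above 0.05 and at most 0.1, a range that held 12.6% of all genes in either direction. *CCR6* was not called, and *CCL19* did not pass the count filter of this comparison. The median log2 fold change of the 9 members was -2.30, beside 0.0079 for all genes tested. In every member the vehicle steers overlapped the GLP-2 steers, because some vehicle steers were as low as treated ones. In bulk tissue, fewer cells of a type and less RNA per cell cannot be told apart.

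**Figure D1:**
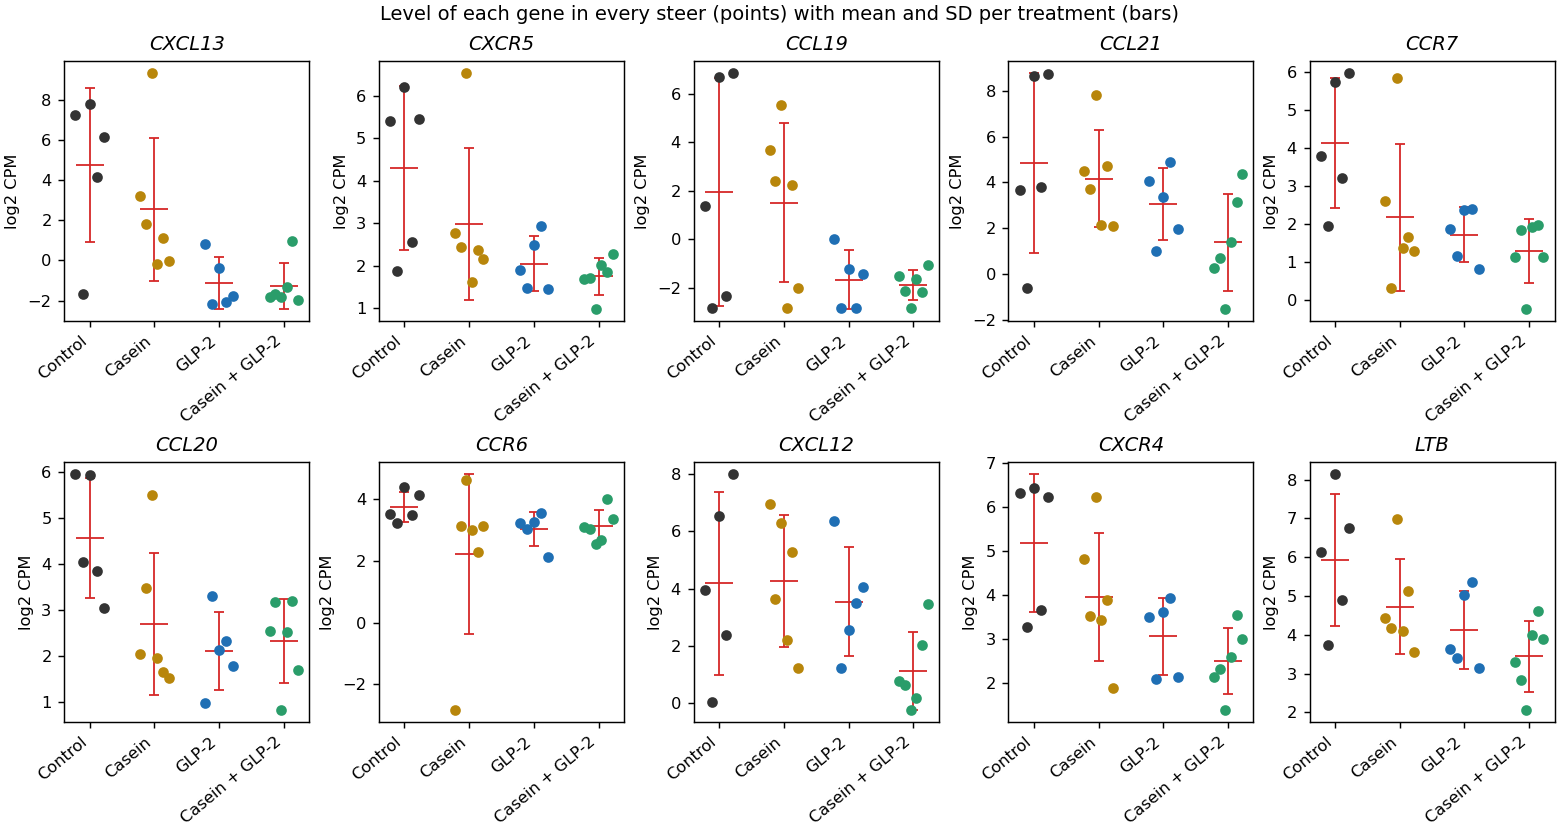
Level of each member (vertical axis, log2 CPM) in each of 22 steers by treatment, where points are steers and red bars are the mean and SD. In *CXCL13* the 11 steers given GLP-2 lie at or below 1.81 CPM, whereas the control and casein steers range from 0.176 to 644 CPM.

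*CXCL13*, the B cell follicle chemokine (chromosome 6, 92284631 to 92291191, plus strand, ENSBTAG00000008479), differed most. The 5 control steers had 152, 0.176, 218, 17.4 and 71.6 CPM in replicates 1 to 5. Casein steers ranged from 0.752 to 644 CPM with a median of 2.71. The highest, replicate 3, was far above the next casein steer at 9.22 CPM. GLP-2 steers had 1.60, 0.0829, 0.616, 0.0970 and 0.153 CPM in replicates 1, 3, 4, 5 and 6, and casein + GLP-2 steers ranged from 0.115 to 1.81 CPM with a median of 0.158. Thus 8 of 11 vehicle steers exceeded the highest steer given GLP-2, while control replicate 2 was as low as they were. In 8 of the 11 steers given GLP-2 the library held 3 counts or fewer, so that levels within this group could not be ordered. The log2 fold change was -7.76 (SE 1.29, 95% interval -10.41 to -5.10, adjusted P = 0.0171), between means of 0.472 CPM ± 0.629 (SD, n = 11) with GLP-2 and 101.8 CPM ± 194.2 (SD, n = 11) with vehicle.

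*CXCR5*, the B cell receptor for *CXCL13* (chromosome 15, 29479402 to 29493244, plus strand), was measured well above the counting limit in all steers, with 26 to 1572 counts. Control steers had 42.6, 3.53, 73.4, 5.798 and 43.6 CPM in replicates 1 to 5. Casein replicate 3 had 93.0 CPM, and the median casein steer had 5.19 CPM. The steers given GLP-2 lay between 1.85 and 7.47 CPM with a median of 3.47. Only 4 of 11 vehicle steers were above the highest of them, and the remaining 7 lay within their range. Control replicates 1, 3 and 5 and casein replicate 3 were these 4. The fitted log2 fold change of *CXCR5* was -2.79 (SE 0.595, adjusted P = 0.0189). With the body weight block in the model it was -1.94 (adjusted P = 0.0529). Its call was also lost on log2 FPKM with a pseudocount of 1, but not with 0.1.

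*LTB* (chromosome 23, 27712125 to 27713962, plus strand), the lymphotoxin that lies upstream of these chemokines, had the highest median FPKM of the members with either injection. Control steers had 70.15, 13.1, 283, 29.7 and 108 CPM in replicates 1 to 5, and casein steers 11.6 to 126 CPM with a median of 19.7. Steers given GLP-2 ranged from 4.04 to 40.85 CPM with a median of 12.4. The same 4 vehicle steers as for *CXCR5* exceeded all of them, and 5 steers given GLP-2 were below every vehicle steer. *LTB* had a log2 fold change of -2.05 (SE 0.535, adjusted P = 0.0240). The call was lost without control replicate 3, the steer with the highest value (-1.48, adjusted P = 0.0582), and with the block (-1.54, adjusted P = 0.0582).

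The T cell zone chemokines *CCL19* and *CCL21* lie close together on chromosome 8 (minus strand, 76054024 to 76055932 and 76080584 to 76081928), and were high in 3 of those 4 steers. *CCL21* reached 403 CPM in control replicate 3, 426 in control replicate 5 and 221 in casein replicate 3, whereas control replicates 1, 2 and 4 had 12.4, 0.529 and 13.6 CPM. The median casein steer had 17.8 CPM. Steers given GLP-2 ranged from 0.213 to 29.6 CPM with a median of 3.74, and 3 of 11 vehicle steers lay above them. Control replicate 1 had much *CXCL13* (152 CPM) with little *CCL21*. For *CCL21* the log2 fold change was -3.63 (SE 0.972, adjusted P = 0.0248). It was not called without control replicate 3 (-3.15, adjusted P = 0.0523) or with the block (-2.30, adjusted P = 0.124). The call was also lost on log2 FPKM with a pseudocount of 1 or 0.1.

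*CCL19* had 102 CPM in control replicate 3, 116 in control replicate 5 and 46.7 in casein replicate 3. Control replicates 1, 2 and 4 had 2.46, 0 and 0.0563 CPM, and the other casein steers had at most 12.55 CPM. Steers given GLP-2 had at most 0.878 CPM, and 9 of these 11 libraries held 3 counts or fewer, of which 3 held 0. A count of 0 allows up to 0.124, 0.291 and 0.213 CPM in those 3 libraries, which were GLP-2 replicates 3 and 5 and casein + GLP-2 replicate 3. This limit covers counting error only. Of the vehicle steers, 7 of 11 exceeded all steers given GLP-2. With no filter on low counts *CCL19* was lower with GLP-2 (log2 fold change -6.96, SE 1.23, adjusted P = 0.0116).

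*CCR7*, the receptor of both chemokines on naive T cells and mature dendritic cells (chromosome 19, 40775267 to 40786420, minus strand), followed the same 3 steers. Control steers had 13.8, 3.71, 53.0, 9.06 and 62.75 CPM in replicates 1 to 5, and casein replicate 3 had 56.6 CPM. The other casein steers had 1.10 to 5.98 CPM. Steers given GLP-2 lay between 0.7095 and 5.14 CPM with a median of 3.47. Of the vehicle steers 6 of 11 exceeded them. *CCR7* had a log2 fold change of -2.72 (SE 0.635, adjusted P = 0.0202), and -1.82 with the block (adjusted P = 0.0698). Its call was also lost on log2 FPKM with a pseudocount of 1 or 0.1.

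*CCL20*, the chemokine of follicle epithelium (chromosome 2, 115948258 to 115951955, plus strand), was high in another combination of steers. Control replicates 1 and 3 had 61.8 and 60.8 CPM and casein replicate 3 had 44.9, but control replicate 5, among the highest for *CCL21* and *CXCR4*, had 8.15 CPM. Control replicates 2 and 4 had 16.2 and 14.1 CPM, and the median casein steer had 3.88 CPM. Steers given GLP-2 ranged from 1.63 to 9.74 CPM with a median of 4.85. Thus 4 of 5 control steers, but only 2 of 6 casein steers, lay above the highest steer given GLP-2 within its own infusion. *CCL20* was lower with GLP-2, with a log2 fold change of -1.99 (SE 0.543, adjusted P = 0.0257). The call was lost without control replicate 1 (-1.68, adjusted P = 0.0564), control replicate 3 (-1.69, adjusted P = 0.0581) or casein + GLP-2 replicate 3 (-1.89, adjusted P = 0.0508), and with the block (-1.35, adjusted P = 0.107). It was lost as well on log2 FPKM with a pseudocount of 1 or 0.1.

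*CCR6*, the receptor of *CCL20* on B cells and on some T cells (chromosome 9, 101910811 to 101926256, plus strand), had the smallest SD in CPM of the members over all 22 steers (5.54 CPM). On the log2 scale its SD was 0.511 with GLP-2 and 2.03 with vehicle, where 1 steer was at 0. Control steers had 11.4, 9.18, 20.9, 11.2 and 17.5 CPM in replicates 1 to 5, and casein steers 0 to 24.7 CPM with a median of 8.23. Steers given GLP-2 ranged from 4.20 to 15.99 CPM with a median of 8.36. For *CCR6* the log2 fold change was -0.38 (SE 0.427, 95% interval -1.26 to 0.51, adjusted P = 0.543), so that the interval leaves room for a decrease as well as for a small increase. Casein replicate 1 held 0 counts of *CCR6*, which allows at most 0.249 CPM, whereas the other 21 steers held 55 to 417 counts. The genes beside it on the chromosome were measured in that steer at values within the range of the others, with 191 counts for *FGFR1OP* and 27 for *GPR31*. Without this steer the log2 fold change was -0.51 (adjusted P = 0.191).

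*CXCL12*, the stromal chemokine (chromosome 28, 45022356 to 45051627, plus strand), varied widely within each treatment. Control steers had 15.2, 0.882, 93.8, 5.07 and 258 CPM in replicates 1 to 5, and casein steers 2.22 to 126 CPM with a median of 25.6. GLP-2 steers had 82.5, 2.20, 5.75, 11.1 and 16.4 CPM in replicates 1, 3, 4, 5 and 6. Casein + GLP-2 steers had only 0.7095 to 10.8 CPM with a median of 1.47. Between all steers given GLP-2 and all given vehicle, *CXCL12* had a log2 fold change of -2.26 (SE 0.891, adjusted P = 0.0815). It was -3.46 (adjusted P = 0.0213) without GLP-2 replicate 1 and -2.40 (adjusted P = 0.0442) without control replicate 2. *CXCL12* was also called with DESeq2 (-2.26, adjusted P = 0.0390) and with the infusion as a covariate (-2.82, adjusted P = 0.0418), but not with the block (-2.23, adjusted P = 0.120).

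*CXCR4*, the receptor of *CXCL12* on most leukocytes (chromosome 2, 61250082 to 61253877, plus strand), had 79.5, 9.62, 85.75, 12.4 and 75.2 CPM in control replicates 1 to 5. Casein replicate 3 had 74.7 CPM and the median casein steer 13.1 CPM. Steers given GLP-2 ranged from 2.48 to 15.1 CPM with a median of 5.94, and 5 of 11 vehicle steers exceeded them. *CXCR4* had a log2 fold change of -2.30 (SE 0.494, adjusted P = 0.0189). The decrease of *CXCR4*, like that of *CXCL13*, was called in all 22 fits that left out 1 steer and with the block (*CXCR4* -1.87 and *CXCL13* -6.26, each with adjusted P = 0.0482).

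**Figure D2:**
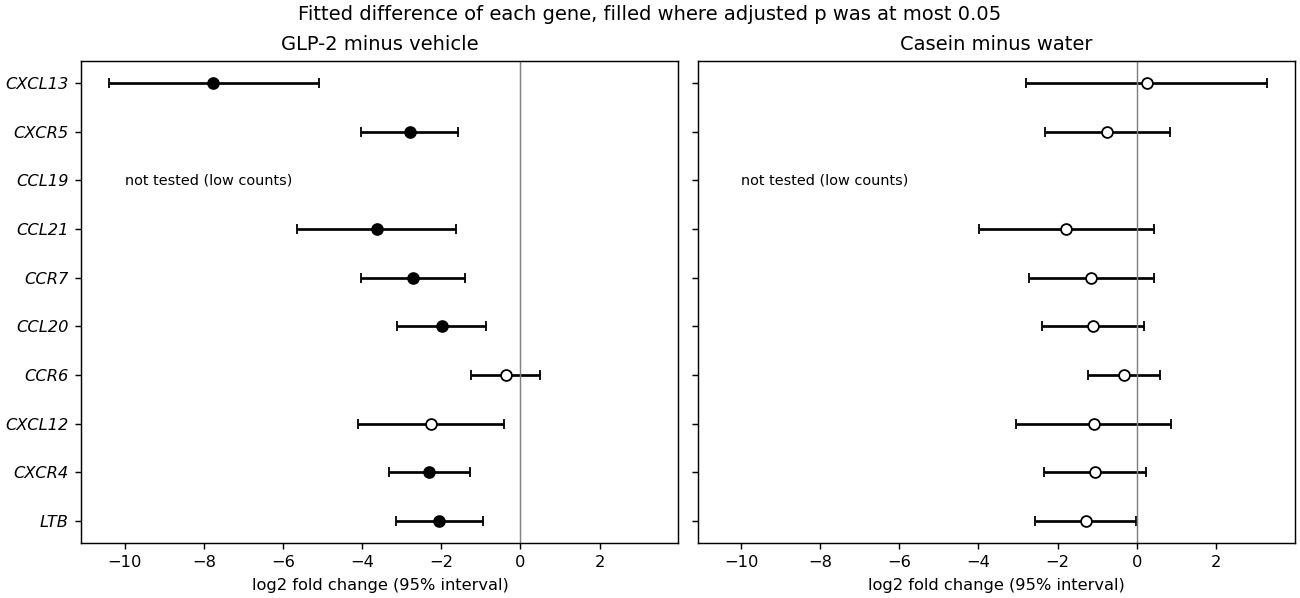
Log2 fold change with its 95% interval (horizontal axis) of each member between steers given GLP-2 and vehicle (left) and between casein and water (right), filled where the adjusted P was at most 0.05. The 7 filled points are all on the left, from -7.76 for *CXCL13* to -1.99 for *CCL20*, and *CCL19* was not tested in either comparison.

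Compared per gene length, the order of the members differed between the injections. With vehicle the median FPKM was 42.0 for *LTB*, 11.8 for *CCL21*, 11.04 for *CCL20*, 8.06 for *CXCR4*, 7.42 for *CXCL13* and 6.81 for *CCL19*. *CXCL12* had 3.65 FPKM, *CCR6* 3.38, *CCR7* 2.66 and *CXCR5* 1.80. With GLP-2 *LTB* was still first at 17.3 FPKM, *CCL19* and *CXCL13* were last at 0.269 and 0.122 FPKM, and *CCR6* stood at 3.24 FPKM between *CCL21* (3.28) and *CCR7* (1.51). The ranges over steers of every pair of neighbours overlapped in both orders, so that the place of a single member is uncertain. With GLP-2, for example, *LTB* ranged from 5.83 to 57.0 FPKM and the next member, *CCL20*, from 1.66 to 10.01 FPKM.

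**Figure D3:**
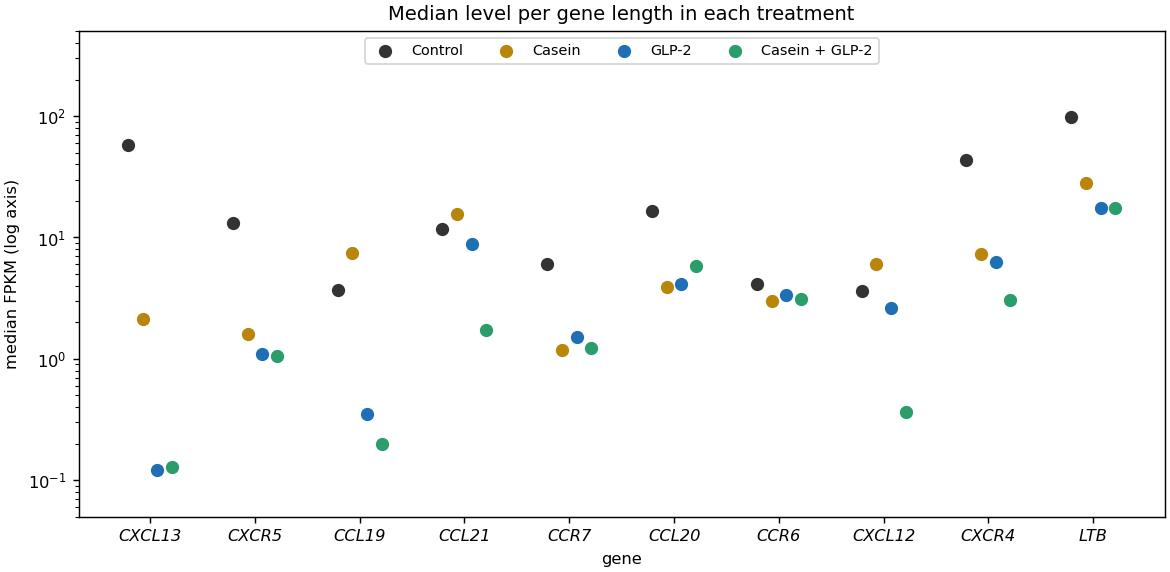
Median FPKM (vertical axis, log scale) of each member in the 4 treatments. Within each of the 2 infusions, the median of *CXCL13* is lower with GLP-2 (58.3 against 0.122 FPKM with water, 2.13 against 0.128 FPKM with casein), and the 4 medians of *CCR6* lie between 2.99 and 4.14 FPKM.

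Postruminal casein infusion changed none of the 9 members tested against water (12 against 10 steers, smallest adjusted P = 0.994), and 0% of 14096 genes were called. At an unadjusted P of at most 0.05 the count was 1 of 9, namely *LTB* (log2 fold change -1.29, SE 0.615, adjusted P = 0.994), beside 3.36% of all genes. With the Wald test of DESeq2, which the study's methods name, 5 genes were called in all, and 2 members were among them. These were lower, *CCR7* (-2.50, adjusted P = 0.0248) and *CXCL13* (-4.70, adjusted P = 0.0321). The study also listed *CCR7* among its genes lower with casein. Of the 9, 8 had lower fitted levels with casein and the median log2 fold change was -1.08, beside 0.00322 for all genes. In the edgeR fit *CXCL13* alone had a positive value (0.26, SE 1.47), and casein replicate 3 decided its sign, since without that steer it was -4.79 (SE 1.27, adjusted P = 0.810). Without the same steer *CXCR5* moved from -0.74 to -2.29, *CCR7* from -1.14 to -2.56 and *CCL21* from -1.78 to -3.32, each with adjusted P = 0.810. The DESeq2 values of *CXCL13* and *CCR7* from all steers lay near the edgeR values without this steer, and the reason was not tested.

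Among the 4 treatments, with 15086 genes and all 10 members tested, no contrast called a member or any gene. The contrasts share steers and were not independent. *CCL19* passed the count filter of this fit largely through vehicle steers. No steer given GLP-2 held more than 11 counts of it, so its fold changes and its place in the counts below only describe. For GLP-2 against control 0% of genes were called, and 8 of 10 members were lower at an unadjusted P of at most 0.05, as 13.9% of all genes changed. *CCL19* had the smallest of these (log2 fold change -7.33, SE 1.84, adjusted P = 0.142), followed by *CXCL13* (-7.51, SE 1.96, adjusted P = 0.162). *CCL20* was lower by 2.74 on the log2 scale (SE 0.777, adjusted P = 0.174). For casein + GLP-2 against casein 0% were called, and the unadjusted count was again 8 of 10, beside 24.1% of all genes. There *CXCL13* (-7.91, SE 1.84) and *CCL19* (-6.28, SE 1.74) each had an adjusted P of 0.118, and *CXCL12* (-3.79, SE 1.21) had 0.121. DESeq2 called 7 members lower in the first of these contrasts, beside 289 genes in all, and 5 in the second, beside 891 genes in all. Single steers weighed on both. For GLP-2 against control, 4 members and 118 genes in all were called without casein replicate 3. The members were *CXCL13*, *CXCR5*, *CCR7* and *CCL20* (adjusted P from 0.0166 to 0.0339). Without control replicate 2, 4 members and 429 genes in all were called. These members were *CXCL13*, *CXCR5*, *CCL19* and *CXCR4* (adjusted P from 0.0331 to 0.0449). For casein + GLP-2 against casein, leaving out casein replicate 3 moved *CXCL13* to -2.83 (adjusted P = 0.198), *CXCR5* to -0.54, *CCR7* to -0.19 and *CCL20* to 0.22, whereas *CXCL12* stayed at -3.55 (adjusted P = 0.180).

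The remaining contrasts held little. For casein against control 0% of genes were called, and at an unadjusted P of at most 0.05 only *CCL20* passed (-1.47, SE 0.699, adjusted P = 0.878) beside 5.66% of all genes. For casein + GLP-2 against GLP-2 0% were called, and *CXCL12* alone passed unadjusted (-2.90, SE 1.20, adjusted P = 0.995) beside 2.64% of all genes. The interaction of casein and GLP-2 called 0% of genes, and no member passed even unadjusted, beside 4.28% of all genes. The member with the smallest P was *CCL20* (1.70, adjusted P = 0.996), which means that the size of its difference with GLP-2 was 1.70 log2 units smaller under casein than under water, within error. DESeq2 called no member in these 3 contrasts, beside 10, 5 and 2 genes in all. With these steers no difference in the response of a member between the 2 infusions was detectable.

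The pattern over steers separated the members further. *CXCR5* showed the widest gap between neighbouring steers, 44.8% of its range on the log2 scale, below 4 steers. These were control replicates 1, 3 and 5 and casein replicate 3. The same 4 lay above the gap of *CXCR4*, at 28.1% of its range. In *CCR7* and *CCL21* the gap was 31.1% and 28.3% and lay below 3 steers, and control replicate 1 fell below it. *CCL20* also had 3 steers above its gap (28.5%), but these were control replicates 1 and 3 and casein replicate 3. *CXCL12*, *LTB*, *CXCL13*, *CCL19* and *CCR6* had no gap over 25% with at least 3 steers on each side.

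**Figure D4:**
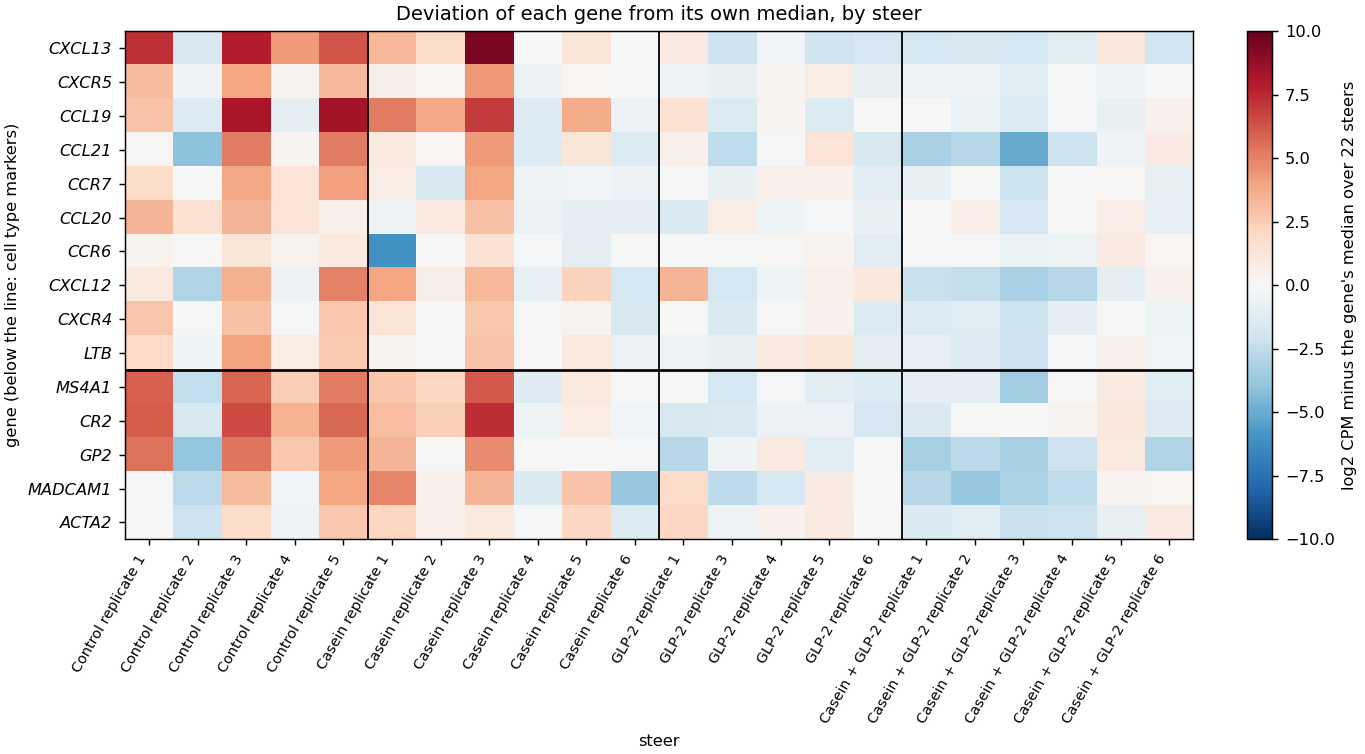
Deviation of each member's log2 CPM from its own median over 22 steers (colour, log2 units) by steer, with markers of B cells (*MS4A1*, *CR2*), M cells (*GP2*), vessels (*MADCAM1*) and smooth muscle (*ACTA2*) below the line. Control replicates 1, 3 and 5 and casein replicate 3 are high for *CXCL13*, *CXCR5*, *CXCR4* and the B cell markers, whereas *CCL19* and *CCL21* are high in 3 of these 4 and *CCR6* is lowest in casein replicate 1.

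Across the 22 steers the ranks of *CXCR4* and *LTB* were the most alike among the members (Spearman's rho = 0.94), followed by *CXCR5* and *LTB* (0.888) and by *CCL21* and *CXCL12* (0.878). *CCL20* and *CXCL12* were least alike (0.0582). These values describe libraries that share treatments and tissue makeup. The non-member genes most like each member in rank are given with rho in parentheses. *CXCL12* was nearest to genes of muscle and matrix, *PDLIM3* (0.966), *LTBP1* (0.960) and *FHL1* (0.959). *CCL21* was nearest to *RAMP3* (0.956), a receptor partner found in endothelium, *YBX3* (0.951) and a gene whose symbol the table holds as a date (ENSBTAG00000015368, 0.957). *CCL20* was nearest to *LAP* (0.840), an epithelial defensin, *GYG1* (0.822) and *ACTR3* (0.805).

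The lymphocyte receptors had other neighbours. *CXCR5* was nearest to *MARCKSL1* (0.924), *PFDN4* (0.921) and *ATXN10* (0.920), and *LTB* to *MARCKSL1* (0.949), *RFTN1* (0.944), a raft protein of B cells, and *GRAP* (0.941). *CXCR4* was nearest to *SIGLEC10* (0.951), *RCC2* (0.940) and *RFTN1* (0.937). *CCR6* was nearest to *VAV1* (0.919), a signalling protein of leukocytes, *DNAJC18* (0.915) and *GNAI2* (0.911), and *CCR7* to *LTBP2* (0.881), *E2F4* (0.876) and *S1PR2* (0.866). *CCL19* was nearest to *NASP* (0.896), *PRIM2* (0.895) and *CCNB1* (0.888), but 13 of its 22 libraries held 3 counts or fewer, so that most of its ranks were not resolved. *CXCL13* was nearest to *C5H12orf45* (0.921), *RNF8* (0.915) and *HPRT1* (0.912), and its ranks among steers given GLP-2 were likewise at the counting limit.

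The ligands were also set beside their receptors in log2 CPM. Because *CXCR5*, *CCR7*, *CCL21*, *CXCR4* and *CCL20* each fell into separate sets of steers, no relation over all steers was tested for pairs that hold one of them. Within the 11 steers given GLP-2, none of 6 pairs was related after adjustment (permutation test, 100000 resamples, 2-sided). *CCL21* and *CCR7* had r = 0.687 (permutation P = 0.0179, adjusted P = 0.108) and rho = 0.618 (permutation P = 0.0484, adjusted P = 0.291). *CXCL12* and *CXCR4* had r = 0.607 (permutation P = 0.0473, adjusted P = 0.142) and rho = 0.500 (permutation P = 0.121, adjusted P = 0.363). The other 4 had r from 0.102 (*CXCL13* and *CXCR5*) to 0.370 (*CCL20* and *CCR6*).

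*LTB* and *CXCL13* had no gap over the limit used above. Over all 22 steers they had r = 0.843 (permutation P = 2e-05) and rho = 0.709 (permutation P = 0.00029). Both genes were called lower with GLP-2, so these values include the difference between the injections. Without control replicate 3 and casein replicate 3, the steers farthest from the median of *LTB*, r was 0.744 (permutation P = 0.00024). Within the 11 vehicle steers r was 0.898 (permutation P = 0.00021) and rho 0.900 (permutation P = 0.00032). Within the 11 steers given GLP-2, where most *CXCL13* values were at the counting limit, r was 0.325 (permutation P = 0.326) and rho 0.164 (permutation P = 0.634). The relation could therefore not be judged within the steers given GLP-2. Control replicates 1, 3 and 5 and casein replicate 3 were the 4 highest steers for both genes. The gap below them was 12.8% of the range in *LTB* and 17.7% in *CXCL13*. The limit that let this pair be compared over all steers was chosen after the values were seen. The part of shared tissue makeup in this relation was not tested.

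**Figure D5:**
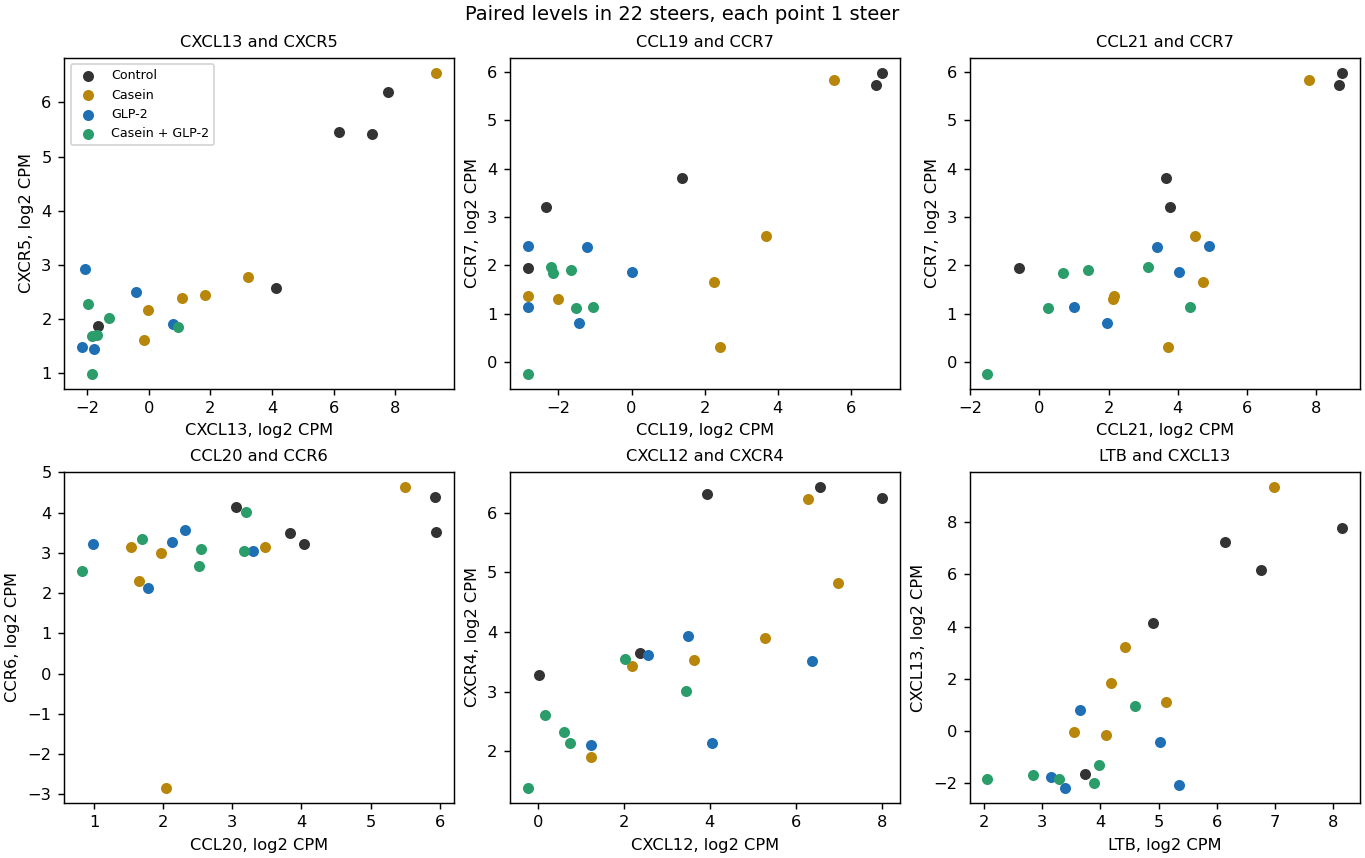
Log2 CPM of a ligand (horizontal axis) and its receptor or, for *LTB*, of *CXCL13* (vertical axis), where each point is 1 of 22 steers coloured by treatment. Control replicates 1, 3 and 5 and casein replicate 3 form the upper right of the *CXCL13* and *CXCR5* panel, and casein replicate 1 lies alone at the bottom of the *CCL20* and *CCR6* panel.

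The lists of genes and markers from here on were, like the members, chosen with earlier results known, so that their counts only describe. They stand beside 8.37% lower and 715 higher genes with GLP-2 among all 13928 tested. Of 22 other genes of the lymphotoxin and NF-κB pathway tested, 4 were lower with GLP-2 and none higher, with a median log2 fold change of -0.21. *TNFRSF13C*, the receptor of B cells for the survival factor BAFF, fell most (-4.69, SE 0.870, adjusted P = 0.0171), and *TNFSF13B*, which encodes BAFF, fell by 0.91 on the log2 scale (SE 0.287, adjusted P = 0.0414). *LTA*, the partner of *LTB*, fell by 2.19 (SE 0.567, adjusted P = 0.0236), and *TRAF3*, an inhibitor of the noncanonical NF-κB pathway, by 0.74 (SE 0.178, adjusted P = 0.0218).

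Of 19 genes of lymphocyte positioning tested, 5 were lower and none higher (median -0.31). These included *S1PR2* (-1.87, adjusted P = 0.0189), which confines B cells to germinal centres, *RGS13* (-3.47, adjusted P = 0.0202), a regulator of chemokine receptor signalling in those cells, and *MADCAM1* (-3.12, adjusted P = 0.0355), the vascular address protein of the gut. *ACKR3*, the scavenging receptor of *CXCL12*, was also lower (-1.27, adjusted P = 0.0384), and the fifth was *ICAM1* (-0.78, adjusted P = 0.0486). Of 19 other gut chemokines 0 were called (median -0.16), and of 12 other chemokine receptors only *CCR10* was lower (-2.03, adjusted P = 0.0394; median 0.085). *CCL25*, the chemokine of small intestinal epithelium, had a log2 fold change of 0.54 (adjusted P = 0.115), and its receptor *CCR9* had 0.08 (adjusted P = 0.830). No gene of these 4 lists was called for casein against water.

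Most B cell markers, and some markers of other cell types, were lower along with the members. Of 12 B cell markers tested, 11 were lower with GLP-2 (median -3.70), among them *CR2* (-5.68), *MS4A1* (-5.10), *CD79B* (-5.09) and *CD79A* (-3.40), each with adjusted P = 0.0171. Their summed level was 115.5 to 159.8 CPM in steers given GLP-2, and 129.8 to 2490 CPM with vehicle. Such sums add CPM without weights, so that the most abundant genes of a list largely set them. Here *SPIB* was the largest part, with a mean of 70.97 CPM with GLP-2 and 168.8 CPM with vehicle. The vehicle steers with the highest sums were control replicate 3 (2490), casein replicate 3 (2122) and control replicates 1 (1465) and 5 (1429), which are the steers with high *CXCL13*, *CXCR5* and *CXCR4*. No steer was at 0 for *MS4A1*, *CD79A* or *CR2*. The part of B cell number in the results above was not tested.

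Of 9 tested markers of follicle epithelium and M cells, 3 were lower, with *GP2*, an M cell receptor for bacteria, at -4.54 (adjusted P = 0.0189), then *MARCKSL1* (-1.71, adjusted P = 0.0226) and *SPIB* (-1.25, adjusted P = 0.0246), which is also among the B cell markers. The median of the list was -0.30, and 4 of its genes had positive values that were not called, from 0.04 for *PGLYRP1* to 2.14 for *DUOX2* (adjusted P = 0.0630). *GP2* was 0.0703 to 4.02 CPM with GLP-2, and with vehicle it was 87.1 CPM in control replicate 1, 86.6 in control replicate 3 and 0 in control replicate 2. The summed list was 569.8 to 811.1 CPM with GLP-2 and 550.3 to 1125 CPM with vehicle. Its largest part was *ANXA5* (mean 551.5 CPM with GLP-2 and 406.4 CPM with vehicle), whereas *GP2* had means of 1.17 and 28.1 CPM. This sum therefore says little about M cells. Of 8 tested markers of lymphoid stroma and follicular dendritic cells, 4 were lower (*FCAMR*, *MFGE8*, *MADCAM1* and *CLU*, with a median of -0.98 for the list). *MADCAM1* is also among the positioning genes above. Positive values that were not called were those of *BST1* (0.96, adjusted P = 0.185), *LTBR* (0.20) and *VCAM1* (0.01). The summed level of the latter list was 413.8 to 858.3 CPM with GLP-2 and 405.7 to 1475 CPM with vehicle. Its largest parts were *BST1* (means of 273.6 CPM with GLP-2 and 142.9 with vehicle) and *CLU* (183.2 and 490.5 CPM), which moved in opposite directions. Of 8 plasma cell markers 2 were lower, *DERL3* (-1.78, adjusted P = 0.0226) and *TNFRSF17* (-2.28, adjusted P = 0.0292), with sums of 335.2 to 2267 CPM against 422.8 to 5670 CPM. In that list *SDC1* (0.19), *XBP1* (0.17) and *PRDM1* (0.007) had positive values that were not called.

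Of 14 T cell markers *CD5* alone was lower (-0.58, adjusted P = 0.0259), and *CD3E*, part of the T cell receptor complex, was not called (-0.25, SE 0.199, adjusted P = 0.385). Summed T cell markers were 994.6 to 2074 CPM with GLP-2 and 641.6 to 2664 CPM with vehicle. Of 11 markers of dendritic cells and macrophages only *MRC1* was called and was higher (0.85, adjusted P = 0.0420), with sums of 697.1 to 2260 CPM against 726.1 to 1628 CPM. Of 14 epithelial markers 4 were higher (*CDH1*, *SLC5A1*, *LCT* and *EPCAM*, with a median of 0.82 for the list), beside 715 of all 13928 genes tested. Their sum was 30750 to 122300 CPM with GLP-2 and 4598 to 79240 CPM with vehicle. The lowest epithelial sums were in control replicate 5 (4598), casein replicate 1 (9900), casein replicate 3 (10620) and control replicate 3 (15480).

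None of 10 endothelial and lymphatic markers (median -0.14) or of 8 smooth muscle markers (median -1.21) was called. For *PECAM1*, an endothelial adhesion protein, the log2 fold change was -0.62 (SE 0.407, adjusted P = 0.279), and for *ACTA2*, smooth muscle actin, it was -1.01 (SE 0.544, adjusted P = 0.190). Summed endothelial markers were 15.61 to 301.3 CPM with GLP-2 and 17.82 to 385.3 CPM with vehicle. Summed smooth muscle markers reached 1457 CPM in control replicate 5, 809.3 in GLP-2 replicate 1 and 783.7 in casein replicate 5, and were 36.96 to 267.1 CPM in casein + GLP-2 steers. The steer highest for *CXCL12* was also highest for these markers in control and GLP-2, but not in casein, where *CXCL12* was highest in replicate 1 (126 CPM, smooth muscle sum 661.6) and the sum in replicate 5 (39.0 CPM of *CXCL12*). Control replicate 1, with high *CXCL13* and low *CCL19* and *CCL21*, had a smooth muscle sum of 121.8 CPM and 1.75 CPM of *MADCAM1*, whereas *MADCAM1* was 17.3 CPM in control replicate 3, 29.3 in control replicate 5 and 20.0 in casein replicate 3. The highest *MADCAM1* of all steers, 56.6 CPM, was in casein replicate 1, which had only 22.6 CPM of *CCL21* and 12.55 CPM of *CCL19*. The part of stroma, muscle and vessels in the scraped tissue in these results was not tested.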

How the data were processed

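HISAT2 (2.0.5), on the ARS-UCD1.2 assembly, and featureCounts (1.5.0-p3) were used by the authors, who deposited raw counts and FPKM per gene; the strand setting of the counting was not given in the sources used here. Deposited FPKM equalled counts per gene length and library size times 1 constant per steer (0.73 to 1.25). Counts were filtered with filterByExpr (minimum count 10), normalised by TMM and tested with the quasi-likelihood test of edgeR 4.0.16 (R 4.3.3, limma 3.58.1, DESeq2 1.42.0) with Benjamini-Hochberg adjustment. The injections, and separately the infusions, were compared over pooled groups, after the study's methods. The study itself used the Wald test of DESeq2, which is among the alternatives here. No block term was used, and whether the study used one is not given in the sources used here. A GLP-2 steer counted in the study's methods was not analysed here. The study did not sequence a control sample because its RNA integrity was low. RNA integrity also varied among the sequenced samples, and values per steer were not in the sources used here, so that its part was not tested. The 4 treatments were fitted together. CPM values come from the TMM factors of the latter. The scripts were tested on simulated data. No libraries were identical, and each steer is 1 library. The members and the lists were chosen with earlier results of these data known. Named are all members, up to 4 called genes per list with the smallest P, defining markers and the 3 genes most like each member; *ICAM1*, *CCL25* and *CCR9*, and the limit of 25% for gaps, were chosen after their values were seen. Alternatives were other normalisations, filters, tests, FPKM on a log2 scale with pseudocounts 1 and 0.1, the replicate block, the other factor as a covariate, and leaving out each steer. Blocks are those of the randomised complete block design: residuals of same-block steers of 6 blocks had a mean correlation of 0.0331 (30 pairs, from -0.464 to 0.387, 13 above 0.1), beside -0.00641 for 151 other pairs.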

Additional observations from a re-analysis of the deposited data

Results flagged for a closer look

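In 40 sets of values (10 members in 4 treatments, log2 CPM), 4 values lay farther from their nearest neighbour, relative to the range, than the 95% limit of Dixon's gap test, where chance gives about 1 in 20. *CXCL13* in casein replicate 3 was 9.33, with the next casein steer at 3.23. *CXCR5* in the same steer was 6.54, with the next at 2.78. *CCR6* in casein replicate 1 was -2.83, from a count of 0, with the next at 2.30. *CXCL13* in casein + GLP-2 replicate 5 was 0.97, from 23 counts, with the next at -1.30.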

How the results depend on the processing

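Over all alternatives, 2047 member log2 fold changes kept their direction and side of the threshold, 25 became called, 17 lost the call and 46 turned direction, most of the last in casein or interaction contrasts. The cause was not tested. With DESeq2 the genes called numbered 2999 between GLP-2 and BSA, against 1881, and 5 between casein and water with 2 members. DESeq2 also called 289 genes and 7 members for GLP-2 over control, 891 genes and 5 members for casein + GLP-2 over casein, 10 genes for casein over control, 5 for casein + GLP-2 over GLP-2 and 2 for the interaction. A fit of only the last pair of treatments called 1. With the replicate block 689 genes and 2 members were called between GLP-2 and BSA. On log2(FPKM + 1) and log2(FPKM + 0.1) 3 and 4 members were called there. The count of all genes called on these scales is not given here, so that a change particular to the members cannot be read from them. In that comparison *CCR7*, *CCL21* and *CCL20* lost the call on both FPKM scales, and *CXCR5* on log2(FPKM + 1). Leaving out 1 steer gave 634 genes (without casein + GLP-2 replicate 3) to 3516 (without control replicate 2) and 4 (without control replicate 3) to 8 members there. It gave 0 to 429 genes and 0 to 4 members for GLP-2 over control, with 118 genes without casein replicate 3 and 429 without control replicate 2, and 0 to 1 gene for both contrasts with casein + GLP-2. Pearson's r of *LTB* and *CXCL13* was 0.325 within steers given GLP-2.

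Turned directions were as follows. *CCR6* between GLP-2 and BSA was 0.077 with FPKM + 0.1. *CXCL13* between casein and water was -4.70 with DESeq2, -2.18 with the block, -1.07 and -1.17 with FPKM + 1 and + 0.1, and -4.79 (without casein replicate 3) to 1.05 with 1 steer left out. *CXCL13* for casein over control was -0.96 with the block, -2.08 and -2.195 with FPKM, and -4.83 (without casein replicate 3) to 0.87 with 1 steer left out. *CXCL12* in that contrast was 0.025 with FPKM + 0.1, and -1.49 to 0.5695 (without control replicate 5). *CCR6* for casein + GLP-2 over casein was 0.014 with no filter, 0.20 with the block, 0.26 and 0.75 with FPKM, and -0.28 to 0.60 with 1 steer left out. *CCL20* there was -1.24 to 0.22 (without casein replicate 3). For casein + GLP-2 over GLP-2, leaving out 1 steer gave -1.48 to 0.76 for *CXCL13* and -1.22 to 0.049 for *CCL19* (both highest without GLP-2 replicate 1), and -0.13 to 0.24 for *CCR6*. The interaction of *CXCL13* was 0.80 with the block, 2.03 and 2.055 with FPKM, and -1.74 to 4.71 (without casein replicate 3). That of *CCL19* was -0.42 with the block. That of *CCL21* was -0.19 with the block, -0.33 and -0.99 with FPKM, and -0.34 to 2.50 with 1 steer left out. Leaving out 1 steer gave -0.095 to 2.45 for *CXCR5* and -0.20 to 1.59 for *LTB*, both lowest without control replicate 3. Counts of 3 or fewer limit *CXCL13* and *CCL19* in steers given GLP-2.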

Other observations

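*CCR6* was 1 of 25 genes that held 0 counts in exactly 1 steer and at least 30 counts in each of the others, a limit chosen after its values were seen. Of these 25, 4 were in casein replicate 1, and the others were spread over 6 further steers.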
